A study of Mus musculus with 3 samples.

Results

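The carbonic anhydrases are a family of zinc enzymes, named Car genes in the mouse, and 10 of them (Car1, Car2, Car3, Car4, Car5b, Car8, Car9, Car12, Car13 and Car14) were examined in sorted cells from the inner bone surface. The members were taken as every probe set whose annotation names 1 of these genes alone, which gave 21 probe sets for 10 of the 18193 genes on the array. The family was selected on its differences between the populations on these same 3 arrays, with earlier results known, so the values are descriptions. The other family genes on the array (Car5a, Car6, Car7, Car10, Car11 and Car15) were counted as a comparison list.

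The cells came from thigh and shin bone of C57BL/6 mice, whose age, sex and number are not given in the sources used here. Cells set free by collagenase that lacked CD45 (white blood cells), CD31 (endothelium) and Ter119 (red cells) were divided by the adhesion protein ALCAM and by Sca-1, which stem and progenitor cells carry. The populations were ALCAM(+) Sca-1(-) cells (ALCAM+ here), ALCAM(-) Sca-1(+) cells (Sca-1+) and ALCAM(-) Sca-1(-) cells (marker-negative). They share the 3 negative gates and the enzyme treatment, and each was measured on 1 array, so no difference below has a replicate check or a p-value.

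Carbonic anhydrases turn carbon dioxide and water into bicarbonate and a proton, and back. Family members differ in place: Car1, Car2, Car3 and Car13 work in the cytosol, Car5b in mitochondria, and Car4, Car9, Car12 and Car14 on the cell surface, whereas the Car8 protein has lost the enzyme activity. In the skeleton the family is best known through CAII, the Car2 product, which gives osteoclasts the protons to dissolve mineral and serves carbon dioxide transport in red cells.

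The signals are MAS5 intensities on a linear scale, scaled by the authors to the same trimmed mean on each array. Values at or below a floor of 75.4, the median of all signals, were treated as not measured, and 48.9% to 51.4% of probe sets lay above it. Alcam was above the floor in ALCAM+ cells alone, at 267.7 for its brightest probe set, against 41.1 in Sca-1+ cells and 36.3 in marker-negative cells. Pecam1 (CD31) stayed under the floor on each array, and Ptprc (CD45) in its brighter probe set gave 11.6 in ALCAM+ cells, 163.2 in Sca-1+ cells and 159.4 in marker-negative cells. Because the samples are bulk RNA, fewer cells of a type and less RNA per cell cannot be told apart.

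Of the 10 genes, 8 were above the floor on at least 1 array, and 3 of these (Car8, Car12 and Car13) on all of them. Car9 and Car14 were below it in every population. Between the populations 5 genes were at least 4-fold apart: Car1, Car2, Car8 and Car12 had their highest signal in marker-negative cells and Car3 in ALCAM+ cells. Among the 12643 measured genes, those that passed the floor on 1 array or more, 14.8% were at least 4-fold apart by the same count. Car4, Car5b and Car13 had their highest signal in Sca-1+ cells and were not 4-fold apart. Over all measured genes the highest signal was in ALCAM+ cells for 28.1%, in Sca-1+ cells for 38.7% and in marker-negative cells for 33.2%. Genes above the floor through 1 population had to differ, so these counts lend no support of their own.

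**Figure D1:**
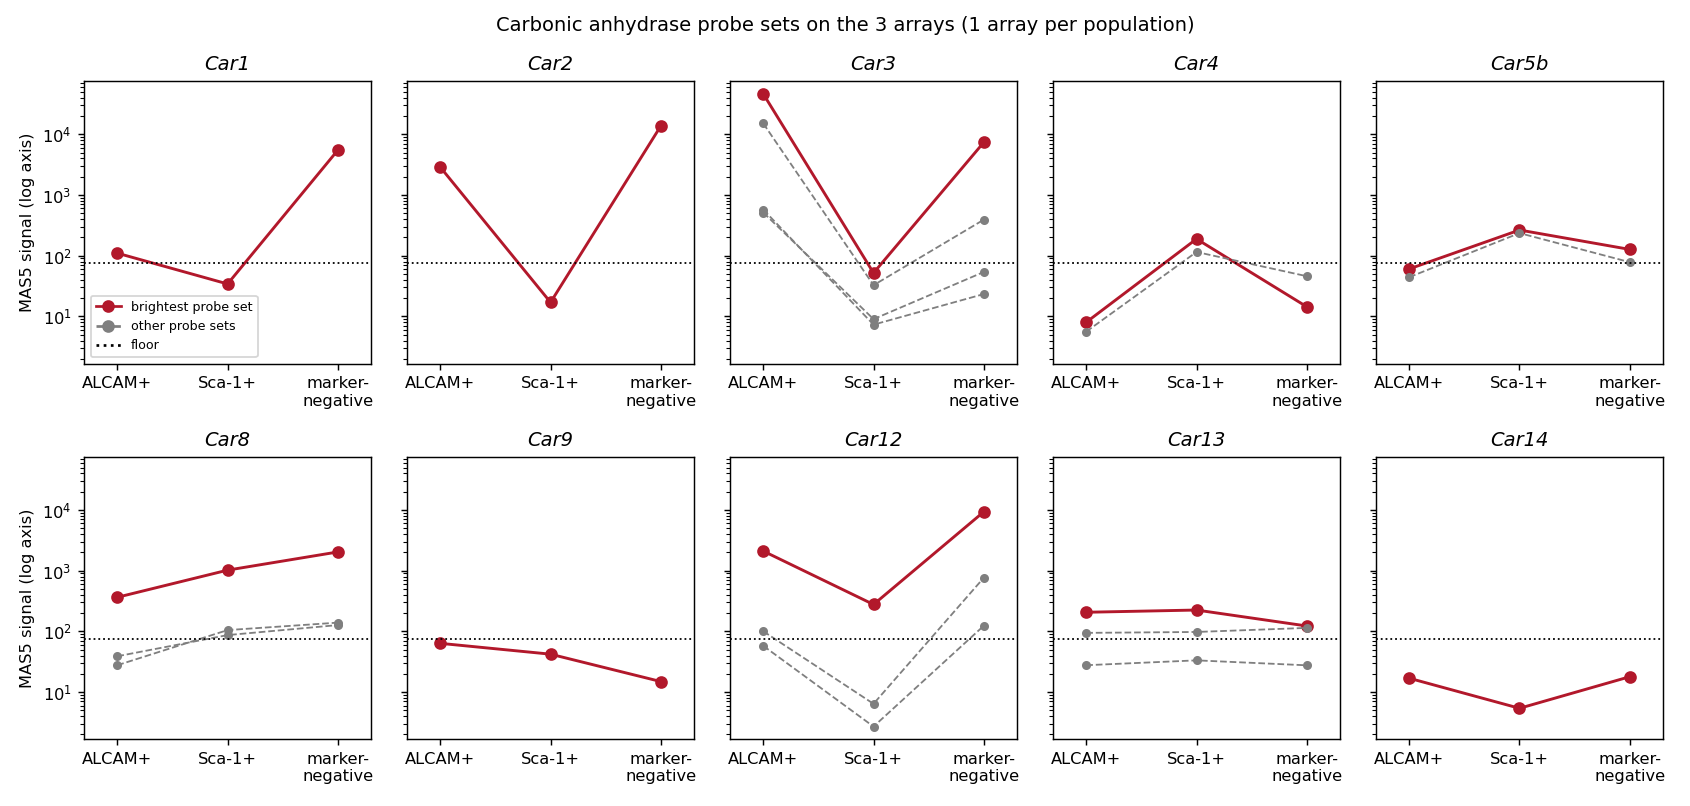
MAS5 signal (log axis) of the 21 carbonic anhydrase probe sets in ALCAM+ cells, Sca-1+ cells and marker-negative cells, 1 array each and without error bars. Red lines join the brightest probe set of a gene, grey dashed lines its other probe sets, and the dotted line is the floor of 75.4. Car1, Car2, Car8 and Car12 peak in marker-negative cells, Car3 in ALCAM+ cells, and Car9 and Car14 stay under the floor.

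Among the cytosolic enzymes, Car1, the abundant carbonic anhydrase of red cells, was close to a marker-negative signal alone. Its single probe set gave 110.0 in ALCAM+ cells, 34.2 in Sca-1+ cells and 5490.9 in marker-negative cells. The marker-negative value stands far above the other two, of which only the ALCAM+ one passed the floor. Car1 was 49.9-fold lower in ALCAM+ cells than in marker-negative cells, and at least 72.8-fold lower in Sca-1+ cells than in marker-negative cells. Between ALCAM+ and Sca-1+ cells it differed by at least 1.46-fold, below the 4-fold count.

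Car2, the fast cytosolic enzyme of red cells and osteoclasts, was also brightest in marker-negative cells but kept a signal in ALCAM+ cells. Its single probe set gave 2879.2 in ALCAM+ cells, 17.0 in Sca-1+ cells and 13751.3 in marker-negative cells. Car2 was thus measured in both Sca-1-negative populations and below the floor in Sca-1+ cells. It was 4.78-fold lower in ALCAM+ cells and at least 182-fold lower in Sca-1+ cells than in marker-negative cells. In ALCAM+ cells it was at least 38.2-fold higher than in Sca-1+ cells.

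Car1 and Car2 share the red cell as a known site, and both were highest in marker-negative cells. In a list of 19 red cell genes 15 were measured, all of them above the floor in marker-negative cells and 4 (Epor, Ank1, Aqp1 and Cldn13) in ALCAM+ cells. In ALCAM+ against marker-negative cells 12 of the 15 were at least 4-fold lower and 0 higher, with a median log2 difference of -3.46. Over all measured genes 2.67% were lower and 2.01% higher. Klf1, which encodes a transcription factor of erythroblasts, had 58.6 in ALCAM+ cells, 58.6 in Sca-1+ cells and 3649.2 in marker-negative cells. Hemgn, a nuclear protein gene of blood precursors, had 1.6 in ALCAM+ cells, 22.9 in Sca-1+ cells and 5891.8 in marker-negative cells. Slc4a1, the red cell bicarbonate exchanger that works beside the cytosolic enzymes, had 52.9 in ALCAM+ cells, 13.8 in Sca-1+ cells and 2413.7 in marker-negative cells. These 3 genes passed the floor in marker-negative cells alone. The log2 difference of Car1 in ALCAM+ against marker-negative cells, -5.64, lay near those of Klf1 and of Ermap, an erythroblast membrane protein gene, at -5.60 and -5.64, which are bounds because their ALCAM+ signals were below the floor. That of Car2, -2.26, lay near those of Epb42, a membrane skeleton gene (-2.26, a bound), and Epor, the erythropoietin receptor gene (-2.49). The signals were unlike, since in ALCAM+ cells Epb42 had 17.2 and Epor 79.8, where Car2 had 2879.2. In that comparison Car1 and Car2 were both within the range of the 15 genes, which ran from -6.29 (Hemgn) to -0.93 (Aqp1). In the other comparisons, by floored signals, Car1 stayed within the red cell range and Car2 did not. In Sca-1+ over marker-negative cells Car2 was at -7.51 and the lowest red cell gene, Hemgn, at -6.29. Both are bounds with the Sca-1+ signal below the floor, so which of them differed more is not known. In ALCAM+ over Sca-1+ cells Car2 was at 5.25 and the highest red cell gene, Cldn13, at 0.73, again both bounds. Car2 was within the floored range of the cartilage genes, counted below, in each comparison. In ALCAM+ over marker-negative cells only Ucma, at -2.29, put it there. The summed signal of the 16 red cell genes named on the array was 2529.9 in ALCAM+ cells, 9766.8 in Sca-1+ cells and 27942.8 in marker-negative cells, and in Sca-1+ cells 9054.1 of it came from Aqp1, a water channel gene of many cell types. Hba-a1, a globin gene, was below the floor on the 3 arrays in its single-gene probe set. The part of red cell precursors in the Car1 and Car2 signals was not tested.

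Genes of osteoclasts, the other known site of Car2, were counted in the same way. Of 15 osteoclast genes 10 were measured, and 0 were at least 4-fold apart in either direction between ALCAM+ and marker-negative cells. Over all measured genes 2.01% were higher and 2.67% lower, so a count of 0 in 10 genes is near these shares. In Sca-1+ cells 1 was higher, Itgb3, an integrin subunit gene that osteoclasts share with other cells, at 1713.7 against 65.8 in marker-negative cells. The share of all measured genes higher in that comparison was 5.46%. The 5 genes that were not measured on any array were Calcr, Oscar, Dcstamp, Ocstamp and Tnfrsf11a. Above the floor on all 3 arrays were 7 genes: Acp5, Ctsk, Tcirg1, Clcn7, Ostm1, Nfatc1 and Src. Acp5, which encodes tartrate-resistant acid phosphatase, had 368.1 in ALCAM+ cells, 789.1 in Sca-1+ cells and 474.6 in marker-negative cells. Nfatc1, a transcription factor gene needed for osteoclast formation, had 5760.3 in ALCAM+ cells, 2203.6 in Sca-1+ cells and 5948.6 in marker-negative cells, the same order as Car2 with smaller differences. The summed signal of the list was 15583 in ALCAM+ cells, 19540 in Sca-1+ cells and 12353 in marker-negative cells. Without Ctsk, the cathepsin K gene that other mesenchymal cells also transcribe, it was 8806 in ALCAM+ cells, 9801 in Sca-1+ cells and 9062 in marker-negative cells, so the low marker-negative sum rested on that gene. The part of osteoclasts in the Car2 signal was not tested.

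Car3, a cytosolic enzyme of low activity that is abundant in muscle and fat, was the member with its highest signal in ALCAM+ cells. Its brightest probe set gave 46406.8 in ALCAM+ cells, 51.9 in Sca-1+ cells and 7384.4 in marker-negative cells. ALCAM+ and marker-negative cells were both far above the floor and Sca-1+ cells below it. Car3 was 6.28-fold higher in ALCAM+ cells than in marker-negative cells and at least 615-fold higher in ALCAM+ cells than in Sca-1+ cells. It was at least 97.9-fold lower in Sca-1+ cells than in marker-negative cells.

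The other 3 probe sets of Car3 were also highest in ALCAM+ cells but differed in size. The next brightest gave 15128.8 in ALCAM+ cells, 32.6 in Sca-1+ cells and 392.2 in marker-negative cells, so by it Car3 was 38.6-fold higher in ALCAM+ cells than in marker-negative cells. The remaining pair were above the floor in ALCAM+ cells alone, at 513.9 and 574.7, and were at least 6.82-fold and at least 7.62-fold higher there than in marker-negative cells. The brightest probe set stood at 93.7% of the highest signal on the ALCAM+ array and at 18.7% of the highest on the marker-negative array. Whether a ceiling of the signal lies behind its smaller fold in ALCAM+ over marker-negative cells was not tested.

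Genes of cartilage, bone, fat and muscle, the tissues of bone and around it, were counted beside Car3. Of 18 cartilage genes, all measured, 17 were at least 4-fold lower in Sca-1+ cells than in marker-negative cells and 16 at least 4-fold higher in ALCAM+ cells than in Sca-1+ cells. Over all measured genes these shares were 4.71% and 3.99%. Between ALCAM+ and marker-negative cells the list's median log2 difference was 0.13, with Col10a1, the collagen of hypertrophic cartilage, and Matn1, a cartilage matrilin, at least 4-fold higher and Ucma lower. Col10a1 had 29730.0 in ALCAM+ cells, 3.3 in Sca-1+ cells and 7099.7 in marker-negative cells. Of 10 measured genes of bone-forming cells, 3 (Ifitm5, Phex and Dmp1) had 4-fold or more signal in ALCAM+ cells than in marker-negative cells and 9 had 4-fold or more signal in ALCAM+ cells than in Sca-1+ cells. The shares of all measured genes were 2.01% and 3.99%. Of 12 fat cell genes 6 were measured, none of them at least 4-fold higher in ALCAM+ cells in either comparison. At least 4-fold lower there were Plin4 against marker-negative cells and Lpl against Sca-1+ cells, beside 2.67% and 5.86% of all measured genes. Adipoq, the adiponectin gene that marks fat cells, had 24.6 in ALCAM+ cells, 43.8 in Sca-1+ cells and 120.4 in marker-negative cells. The summed signal of the list was 467.7 in ALCAM+ cells, 8436.7 in Sca-1+ cells and 1670.6 in marker-negative cells. Without Lpl it was 292.9 in ALCAM+ cells, 878.4 in Sca-1+ cells and 1023.6 in marker-negative cells. Of 15 skeletal muscle genes 6 were measured. The 9 others, among them Ckm, Myh1, Myh2, Myh4 and Pvalb, were below the floor on the 3 arrays. Tnni2, the fast skeletal troponin I gene, had 2175.2 in ALCAM+ cells, 57.8 in Sca-1+ cells and 2288.1 in marker-negative cells, and Acta1, a muscle actin gene, 528.5 in ALCAM+ cells, 51.2 in Sca-1+ cells and 627.3 in marker-negative cells. Tnnt3, the fast skeletal troponin T gene, had 110.4 in ALCAM+ cells, 49.6 in Sca-1+ cells and 279.2 in marker-negative cells, and Mylpf, a fast myosin light chain gene, 102.4 in ALCAM+ cells, 41.7 in Sca-1+ cells and 251.2 in marker-negative cells. The part of muscle in the Car3 signal was not tested.

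**Figure D2:**
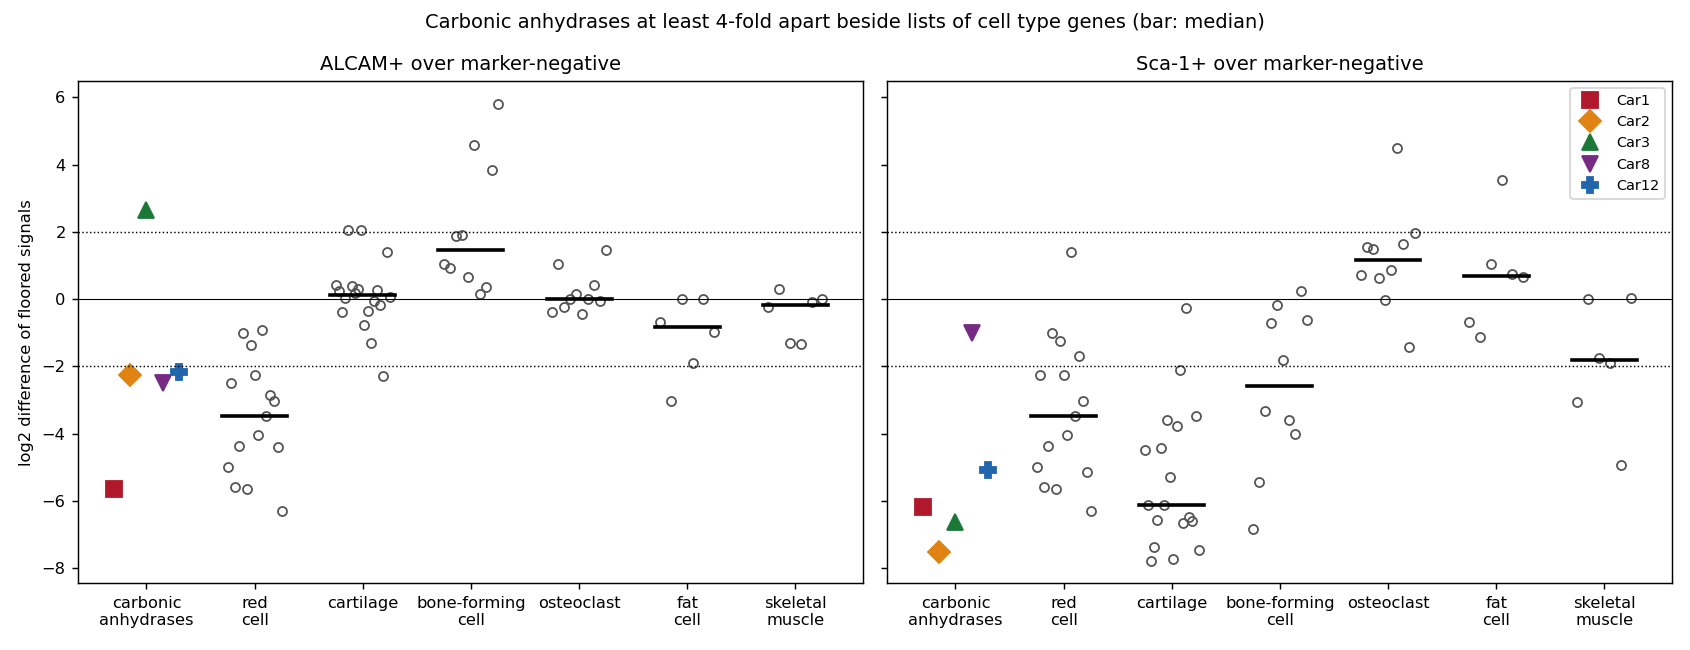
Log2 difference of floored signals for ALCAM+ over marker-negative cells (left) and Sca-1+ over marker-negative cells (right). Coloured symbols are the 5 carbonic anhydrase genes at least 4-fold apart, open circles the measured genes of each list, bars list medians and dotted lines 4-fold. On the left Car1, Car2, Car8 and Car12 lie in the range of the red cell genes (median -3.46), and Car2 and Car12 also in those of the cartilage and fat cell genes, Car8 in that of the fat cell genes and Car3 in that of the bone-forming cell genes. On the right all 5 lie in the range of the cartilage genes (median -6.13), Car1, Car8 and Car12 also in those of the red cell and bone-forming cell genes, Car3 in that of the bone-forming cell genes, and Car8 in each of the others.

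Car13, a cytosolic enzyme found in many tissues, differed little. Its brightest probe set gave 206.6 in ALCAM+ cells, 224.8 in Sca-1+ cells and 122.7 in marker-negative cells. It was 1.68-fold higher in ALCAM+ cells and 1.83-fold higher in Sca-1+ cells than in marker-negative cells. A second probe set, at 94.5 in ALCAM+ cells, 97.8 in Sca-1+ cells and 114.1 in marker-negative cells, put the order the other way round, and a further one was below the floor throughout. The probe sets thus disagree on the direction. Car13, Car1, Car3 and Car2 follow each other in this order on mouse chromosome 3, with no other protein-coding gene between them in the RefSeq annotation of GRCm38.p6. The neighbours differed in pattern, with Car1 and Car2 highest in marker-negative cells, Car3 in ALCAM+ cells, and Car13 within 2-fold throughout. On the outer side of Car13, Rbis, a ribosome biogenesis gene, had 2690.2 in ALCAM+ cells, 2182.6 in Sca-1+ cells and 3142.7 in marker-negative cells, well within 4-fold.

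Among the surface enzymes Car12, a transmembrane enzyme whose active site faces outwards, had the widest differences. Its brightest probe set gave 2105.8 in ALCAM+ cells, 277.5 in Sca-1+ cells and 9357.3 in marker-negative cells. It was above the floor in all 3 populations, so its folds are measured and not bounds. Car12 was 4.44-fold lower in ALCAM+ cells and 33.7-fold lower in Sca-1+ cells than in marker-negative cells, and 7.59-fold higher in ALCAM+ cells than in Sca-1+ cells. A second probe set, of a type that can match several transcripts, gave 100.4 in ALCAM+ cells, 6.4 in Sca-1+ cells and 765.4 in marker-negative cells, which is 7.62-fold lower in ALCAM+ cells than in marker-negative cells. A dim one passed the floor in marker-negative cells alone, at 123.8. Marker-negative cells were highest in each of the 3 probe sets. With all of them averaged, the log2 difference of Car12 was -1.93 in ALCAM+ over marker-negative cells and 1.11 in ALCAM+ over Sca-1+ cells, both below 4-fold.

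Car9, the other surface enzyme known to be induced by low oxygen in human tumours, was below the floor with 63.5 in ALCAM+ cells, 42.1 in Sca-1+ cells and 14.9 in marker-negative cells. The promoters of Car9 and Car12 are shown because both genes are known to respond to low oxygen in human cells while only Car12 was measured here. Each holds 250 bases before and 50 after the start of the gene (RefSeq, GRCm38.p6, plus strand), Car9 at chr4:43506776-43507075 and Car12 at chr9:66713436-66713735. Capitals mark ACGTG or GCGTG, the core recognised by hypoxia-inducible factors, on either strand (CACGT and CACGC on the printed one, where ACGTG and CACGT can overlap by sharing 4 bases).
Car9: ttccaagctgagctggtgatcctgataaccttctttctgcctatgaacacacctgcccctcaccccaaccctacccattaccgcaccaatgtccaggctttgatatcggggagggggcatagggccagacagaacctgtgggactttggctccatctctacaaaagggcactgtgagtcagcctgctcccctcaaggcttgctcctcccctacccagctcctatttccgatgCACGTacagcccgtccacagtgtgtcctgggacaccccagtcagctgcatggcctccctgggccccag
Car12: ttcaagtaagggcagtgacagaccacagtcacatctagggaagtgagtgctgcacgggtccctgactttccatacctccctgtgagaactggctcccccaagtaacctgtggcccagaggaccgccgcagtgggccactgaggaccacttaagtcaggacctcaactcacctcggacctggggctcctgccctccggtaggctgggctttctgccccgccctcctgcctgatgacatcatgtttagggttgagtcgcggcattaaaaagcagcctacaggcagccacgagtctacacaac
The Car9 window held 1 match and the Car12 window 0, where 43.8% of all 32851 promoter windows of that length held at least 1. A match is a run of letters and not a measured binding site. Promoters were matched for 5 of the 10 genes.

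Hypoxia response genes were mixed in their order over the populations. All 15 were measured, and in ALCAM+ against marker-negative cells 0 were at least 4-fold higher and 1 lower (Egln3), with a median log2 difference of -0.13. In Sca-1+ against marker-negative cells 2 were higher (Adm and Ndrg1) and 2 lower (Pdk1 and Pfkfb3), with a median of -0.83. Of all measured genes 2.01% were higher and 2.67% lower in ALCAM+ cells, and 5.46% higher and 4.71% lower in Sca-1+ cells. The order of Car12, marker-negative above ALCAM+ above Sca-1+ cells, was shared by 6 of the 15 (Slc2a1, Ldha, Bnip3, Pdk1, Pfkfb3 and Higd1a), beside 16.6% of all measured genes. The same order was held by 7 of 18 cartilage genes and 4 of 6 measured skeletal muscle genes. By floored signals of the brightest probe sets, Car12 lay outside the hypoxia response range and within the cartilage range in each of the 3 comparisons. In ALCAM+ over marker-negative cells the low end of the hypoxia range, Egln3 at -2.03, is a bound. Car12, at -2.15, is thus not shown to lie outside it, and only Ucma (-2.29) put Car12 within the cartilage range there. With all Car12 probe sets averaged, -1.93 in that comparison and 1.11 in ALCAM+ over Sca-1+ cells were within the hypoxia ranges. Pfkfb3, a regulator gene of glycolysis, had 1537.4 in ALCAM+ cells, 503.8 in Sca-1+ cells and 3666.9 in marker-negative cells, and Slc2a1, the glucose transporter gene, 7677.8 in ALCAM+ cells, 2165.5 in Sca-1+ cells and 8346.1 in marker-negative cells. Other hypoxia response genes had other orders. Adm, which encodes adrenomedullin, had 985.2 in ALCAM+ cells, 4479.3 in Sca-1+ cells and 309.7 in marker-negative cells, the reverse of Car12 in Sca-1+ cells. Vegfa, the vascular growth factor gene, had 4497.4 in ALCAM+ cells, 903.5 in Sca-1+ cells and 2760.5 in marker-negative cells.

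Car4, an enzyme held on the outer membrane by a lipid anchor, was above the floor in Sca-1+ cells alone. Its brighter probe set gave 8.0 in ALCAM+ cells, 188.8 in Sca-1+ cells and 14.4 in marker-negative cells, and the other 5.6 in ALCAM+ cells, 115.1 in Sca-1+ cells and 45.9 in marker-negative cells. By the brighter one Car4 in Sca-1+ cells was at least 2.50-fold above marker-negative cells, and at least 2.50-fold lower in ALCAM+ cells than in Sca-1+ cells. Car14, a transmembrane enzyme, had 16.9 in ALCAM+ cells, 5.4 in Sca-1+ cells and 17.9 in marker-negative cells, all below the floor.

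Car5b, the mitochondrial enzyme, was also highest in Sca-1+ cells. Its brighter probe set gave 60.5 in ALCAM+ cells, 264.8 in Sca-1+ cells and 126.8 in marker-negative cells, and the other 44.2 in ALCAM+ cells, 235.6 in Sca-1+ cells and 78.2 in marker-negative cells. By the brighter one Car5b was 2.09-fold higher in Sca-1+ cells than in marker-negative cells and at least 3.51-fold lower in ALCAM+ cells than in Sca-1+ cells. Genes of fibroblasts were also highest in Sca-1+ cells, where 10 of 10 were at least 4-fold higher than in marker-negative cells, as were 6 of 11 measured neutrophil and macrophage genes, where 5.46% of all measured genes were. In the same list 2 genes were at least 4-fold lower in Sca-1+ cells than in marker-negative cells, Mpo (14.8-fold) and Elane (at least 6.41-fold), both of early granulocytes, where 4.71% of all measured genes were. The summed signal of the neutrophil and macrophage list was 868.6 in ALCAM+ cells, 17550 in Sca-1+ cells and 3628 in marker-negative cells. Its part in the signals of Car4 and Car5b was not tested.

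Car8, whose product binds the inositol trisphosphate receptor instead of hydrating carbon dioxide, had a graded order over the populations. Its brightest probe set gave 364.8 in ALCAM+ cells, 1021.6 in Sca-1+ cells and 2036.9 in marker-negative cells. Of the 5 genes at least 4-fold apart, Car8 was the only one with its lowest signal in ALCAM+ cells. It was 5.58-fold lower in ALCAM+ cells than in marker-negative cells, 1.99-fold lower in Sca-1+ cells than in marker-negative cells and 2.80-fold lower in ALCAM+ cells than in Sca-1+ cells. The other 2 probe sets kept that order, at 38.9 and 27.7 in ALCAM+ cells, 86.9 and 105.0 in Sca-1+ cells and 127.0 and 139.4 in marker-negative cells, but their differences were below 2-fold once the floor was set. With all 3 averaged, the log2 difference of Car8 in ALCAM+ over marker-negative cells was -1.37, below 4-fold.

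In the first comparison, ALCAM+ against marker-negative cells, 4 of the 10 genes were at least 4-fold lower (Car1, Car2, Car8 and Car12) and 1 higher (Car3), where 2.67% of all measured genes were lower and 2.01% higher by the same count. The median log2 difference of the 8 measured genes was -1.45, against -0.03 over all measured genes, and -0.37 with the unmeasured Car9 and Car14 entered at 0. In Sca-1+ against marker-negative cells 4 were lower (Car1, Car2, Car3 and Car12) and 0 higher, beside 4.71% and 5.46% of all measured genes, with a median of -3.04 for the 8 measured genes against 0.00 over all measured genes, and -0.50 with Car9 and Car14. In ALCAM+ against Sca-1+ cells 3 were higher (Car2, Car3 and Car12) and 0 lower, beside 3.99% and 5.86% of all measured genes, with a median of 0.21 against -0.01, and 0.00 with Car9 and Car14. That comparison shares its arrays with the other pair and adds no measurement. With the arrays scaled on spiked-in poly-A control RNA, 3 were higher and 2 lower in it, beside 2.12% and 12.3% of all measured genes under that scaling. Since the family was picked with these differences known, its counts and medians are not evidence that the family stands apart. The other 6 family genes held 3 measured ones (Car7, Car11 and Car15), and 0 of these were 4-fold apart in any of the comparisons.

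**Figure D3:**
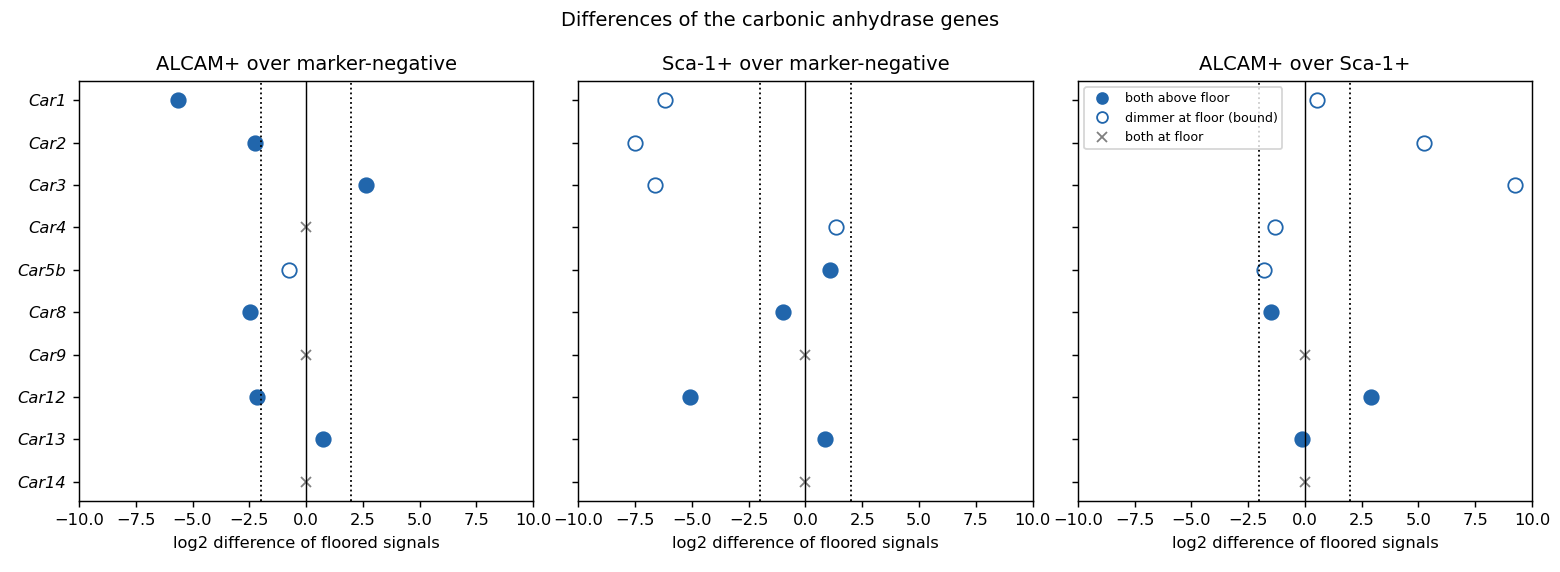
Log2 difference of floored signals of the 10 carbonic anhydrase genes in the 3 comparisons, each from 1 array per population. Filled circles have both signals above the floor, open circles are bounds with the dimmer signal at the floor, crosses have both signals at or below it, and dotted lines mark 4-fold. Car3 is the gene beyond 4-fold in opposite directions in the comparisons with marker-negative cells, at 2.65 on the left and -6.61 in the middle. Car2 (-2.26 and 5.25) and Car12 (-2.15 and 2.92) are beyond 4-fold in opposite directions on the left and on the right.

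**Figure D4:**
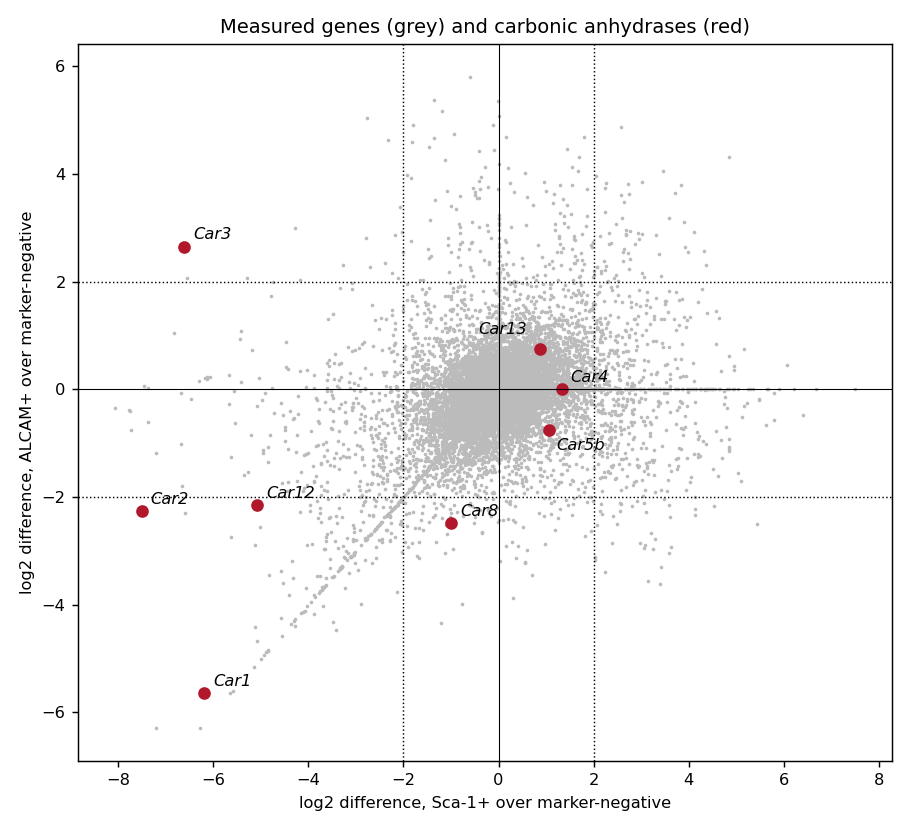
Log2 difference of ALCAM+ over marker-negative cells (vertical) against that of Sca-1+ over marker-negative cells (horizontal) for the 12643 measured genes (grey) and the 8 measured carbonic anhydrases (red), with 4-fold as dotted lines. Both axes share the marker-negative array, and the diagonal and the horizontal streak are genes at the floor. Car1 lies low on both axes, Car2 and Car12 low mainly on the horizontal one, and Car3 high on the vertical and low on the horizontal one.

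Transporters of acid and bicarbonate, the partners of these enzymes, were counted beside them. Of 29 transporter genes 23 were measured, with 2 at least 4-fold higher and 3 lower in ALCAM+ cells than in marker-negative cells, beside 2.01% and 2.67% of all measured genes. The lower genes were Slc4a1, Rhag and Rhd, all membrane proteins of red cells. The higher ones were Slc9a2, a sodium-proton exchanger gene, with 1223.5 in ALCAM+ cells, 26.8 in Sca-1+ cells and 103.7 in marker-negative cells, and Slc26a7, an anion exchanger gene, with 742.3 in ALCAM+ cells, 38.3 in Sca-1+ cells and 135.3 in marker-negative cells. Slc26a2, the sulphate transporter gene of cartilage, had 2878.2 in ALCAM+ cells, 636.8 in Sca-1+ cells and 9447.8 in marker-negative cells, the same order as Car12 and Car2. Slc4a2, the bicarbonate exchanger gene that osteoclasts use, had 1177.6 in ALCAM+ cells, 2057.0 in Sca-1+ cells and 1202.6 in marker-negative cells, within 2-fold.

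For each gene at least 4-fold apart the 3 genes of most similar shape were found, by the distance between log2 signals centred on each gene's own mean over the 3 arrays, among genes above the floor on the same arrays. With 3 arrays many genes lie close to any pattern, so this is a description. Nearest to Car1 were Ctse (distance 0.73), a cathepsin gene, Cldn13 (0.94) and Ccnb2 (1.24), a mitotic cyclin gene, among 585 genes. Nearest to Car2 were Serpina1c (0.78), which has near-identical copies that the probes may not separate, Ncmap (0.89) and Fxyd2 (1.29), a subunit gene of the sodium pump. Nearest to Car3 were Col10a1 (0.50), Matn1 (1.39) and Krtap17-1 (1.78). Car12 lay near Prkar2b (0.44), Rspo3 (0.59) and Meltf (0.59) among 9876 genes above the floor on the 3 arrays. Car8 lay near Pola1 (0.08), Topbp1 (0.11) and Prim2 (0.15), all genes of DNA replication, and Pola1 had 175.1 in ALCAM+ cells, 466.0 in Sca-1+ cells and 998.1 in marker-negative cells.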

How the data were processed

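Total RNA of the 3 sorted populations was labelled by a two-cycle assay of the array's maker, per the labels' protocols. The deposited values are linear signal intensities of 45101 probe sets per array that the authors computed with MAS5 (version not stated in the labels), per the submitters' processing notes. The trimmed mean (2% from each end) was equal on the arrays, so no further scaling was done. Such scaling hides differences in total RNA per cell, and 1 array per population limits the precision.

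Probe sets were named from the platform annotation, checked through identifiers against a RefSeq table (GRCm38.p6), which changed 0 symbols; 34958 probe sets had 1 symbol and 932 several (not used). The 64 control probe sets entered no gene result. Each gene was read from the probe set whose mean signal was highest. Signals were raised to the floor of 75.4, turned to log2 and subtracted with Python 3.11.15, numpy 2.4.6 and pandas 2.3.3; where the dimmer signal was at the floor the fold is a lower bound. Differences of at least 4-fold were counted, with no test. Between the 2 brightest probe sets of a gene, over 4152 genes above the floor on all arrays, log2 differences disagreed with an SD of 0.54 (ALCAM+ over marker-negative), 0.67 (Sca-1+ over marker-negative) and 0.75 (ALCAM+ over Sca-1+); the spread between sorts was not measured. The calculation was tested on simulated data.

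The members, gene lists, naming rule and 10 alternatives were chosen with earlier results of these data known. Named are all members, list genes with the largest differences or with a defining role, gate genes, chromosome neighbours and the 3 genes of most similar shape. Named after their values were seen were Adipoq, Hba-a1, Vegfa, Ctsk, Acp5, Nfatc1, Slc2a1, Epb42, Epor, Slc4a2, the list genes sharing the order of Car12 or above the floor throughout, and the list genes given as below the floor. List genes without a single-gene probe set were not analysed here.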

Additional observations from a re-analysis of the deposited data

How the results depend on the processing

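All 12 differences of at least 4-fold kept their direction under the 7 alternatives of floor, scaling and probe set choice (84 of 84 values). A change of floor cannot reverse a direction, and scaling moved the medians of all measured genes by less than 4-fold. Most of this outcome was thus fixed in advance. Of 60 recounts of members 46 stayed within 1.5 times the main count. In ALCAM+ against marker-negative cells the 1 higher gene (Car3) became 0 when only genes above the floor on all 3 arrays were kept and 0 at 8-fold. The 4 lower genes became 2 with the mean of all probe sets (Car8 and Car12 were lost), 2 with genes above the floor on all 3 arrays and 1 at 8-fold. Over all genes kept, the shares in the same order were 1.64% and 0.759% higher, and 1.53%, 1.64% and 0.823% lower. In Sca-1+ against marker-negative cells the 0 higher genes became 1 (Car4) with the floor at the 25th percentile (21.1) and 2 at 2-fold. The 4 lower genes became 1 with genes above the floor on all 3 arrays. Of all genes kept, 5.47% and 14.98% were higher and 3.26% lower, in the same order. In ALCAM+ against Sca-1+ cells the 3 higher genes became 1 with genes above the floor on all 3 arrays, where 3.31% of all genes kept were higher. The 0 lower genes became 2 (Car4 and Car5b) with the 25th percentile floor, 1 with the floor from olfactory and vomeronasal receptor probe sets (62.3), 2 (Car5b and Car8) when spiked-in poly-A control RNA set the scale, 2 when the hybridization controls did and 3 at 2-fold. The shares of all measured genes lower there were 6.12%, 5.95%, 12.3%, 11.3% and 15.8% in the same order. Poly-A scaling moved the median log2 difference of all measured genes to -0.58 in ALCAM+ over marker-negative, 0.20 in Sca-1+ over marker-negative and -0.82 in ALCAM+ over Sca-1+, where genes at least 4-fold lower numbered 1584 in place of 741. The filter on all 3 arrays removes Car1, Car2 and Car3 by construction, and the counts at another fold or floor follow from the signals given above. The causes of the other changes were not tested. No paired analysis was possible because each population has 1 array.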
